A study of Mus musculus with 3 samples.

Results

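The genes described here are 10 components of the bone morphogenetic protein (BMP) pathway: the ligands Bmp2, Bmp4 and Bmp7, the receptors Bmpr1a and Bmpr2, the target genes Id1, Id2 and Id3, and the inhibitory Smads Smad6 and Smad7. They were read through every probe set that the platform annotation assigns to one of these genes alone, which gave 22 probe sets of the 34945 annotated to a single gene, and 10 of 18193 genes. The cells were mouse embryonic stem (ES) cells, pluripotent cells of the early embryo, modified so that the endoderm transcription factor Gata6 is overexpressed in response to dex (taken to mean the synthetic glucocorticoid dexamethasone). Total RNA was hybridised to 1 array at day 0, which the labels call the control, 1 at day 1 and 1 at day 2 of Gata6 overexpression. All 3 groups are ES cells without any other labelled allele or agent. Whether the day 0 cells carried the modification, whether the line was a single clone, whether feeder cells were present, and the dose of dex could not be learned from the labels.

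BMP ligands are secreted dimers that assemble type I receptors such as Bmpr1a with type II receptors such as Bmpr2. The activated type I receptor phosphorylates Smad1, Smad5 and Smad9, which enter the nucleus with Smad4 and switch on the Id genes, among the most direct targets of the pathway, and also Smad6 and Smad7, which feed back to block it. Id proteins bind E proteins and keep them off DNA, and in mouse ES cells BMP signals acting through Id genes are known to help hold back neural differentiation. Bmp2 is known as a ligand made by the visceral endoderm of the embryo, and Bmp4 as one made by ES cells and the extraembryonic ectoderm.

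Signals are linear MAS5 intensities scaled to one trimmed mean. A signal under the floor of 54.0 was set to it before a ratio was taken, and a gene was called higher or lower where the days differed at least 2-fold with the brighter day above the floor. With 1 array per day no test was possible, and a change between days cannot be told apart from a change between individual cultures or hybridisations. Whether the day 0 cells received dex is not in the labels, so Gata6, dex and time in culture cannot be told apart either. The only error available was the SD of a log2 ratio between probe sets of the same gene, which was 0.49 where signals were below 200, 0.39 between 200 and 1000, 0.26 between 1000 and 5000 and 0.16 above 5000. It is called the measurement SD here and does not cover the spread between cultures. Each gene is represented by its brightest probe set, and further probe sets of the members are described beside it. Levels of different probe sets cannot be set against each other, so only changes are compared between genes.

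Gata6 itself read 109.6, 5574 and 6070 on days 0, 1 and 2, and a second probe set read 177.1, 3769 and 4316. The summed signal of 7 pluripotency markers, all above the floor on every day, was 79414, 17593 and 9963. For 7 primitive endoderm markers it was 310.3, 37936 and 57557, with 3, 7 and 7 of them above the floor. These 7 include the overexpressed Gata6, so their sum is not independent of it. The summed signal of 6 visceral endoderm markers was 741.5, 6896 and 31378, with 1, 3 and 5 above the floor and Afp under it on each array. Most of the day 2 sum was Cubn, at 20097. Ttr, Cubn and Amn were called higher on day 2 than on day 0. Apoa1 (56.6 on day 2), Apob (65.7 on day 2) and, on day 1, Ttr (68.5) were close to the floor and not called there. Fibroblast feeder markers summed to 605.9, 375.8 and 384.3, with 3 of the 7 (Col1a1, Col3a1, Postn) never above the floor; among them Thy1 was called lower on days 1 and 2 (421.4, 75.4 and 50.5) and Twist1 higher on day 2. The part that these shifts in marker genes play in the values below was not tested.

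The members differed in both directions. On day 1, 3 of the 10 genes (Bmp2, Id1 and Id2) were higher than on day 0, where 6.00% of the 13602 genes compared were higher, and 1 (Bmp4) was lower, where 6.58% were. On day 2, 4 (Bmp2, Bmpr2, Id1 and Id2) were higher than on day 0 against 11.0% of 13865 genes, and 3 (Bmp4, Smad6 and Smad7) were lower against 10.1%. Between day 1 and day 2, Id2 was higher and Bmp4 lower, where 5.61% and 3.67% of 13468 genes were. The median log2 ratio of the members was 0.46 on day 1 and 0.24 on day 2 against day 0, and that of all genes compared was -0.04 and -0.05. Both ratios use the same day 0 array, and the members were chosen with earlier results of these data known. With a 1.5-fold threshold in place of 2-fold, Smad6 and Smad7 would join Bmp4 as lower on day 1, where 15.9% of genes were; from day 1 to day 2, Bmpr2 would join Id2 as higher (15.0% of genes) and Smad6 would join Bmp4 as lower (12.1%). With a 3-fold threshold, Bmp2 and Id2 were the members higher on day 2 than on day 0 (5.19% of genes), and from day 1 to day 2 no member was called in either direction (1.69% of genes higher and 0.832% lower). Of the 22 probe sets, 20 were above the floor on at least 1 day.

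**Figure D1:**
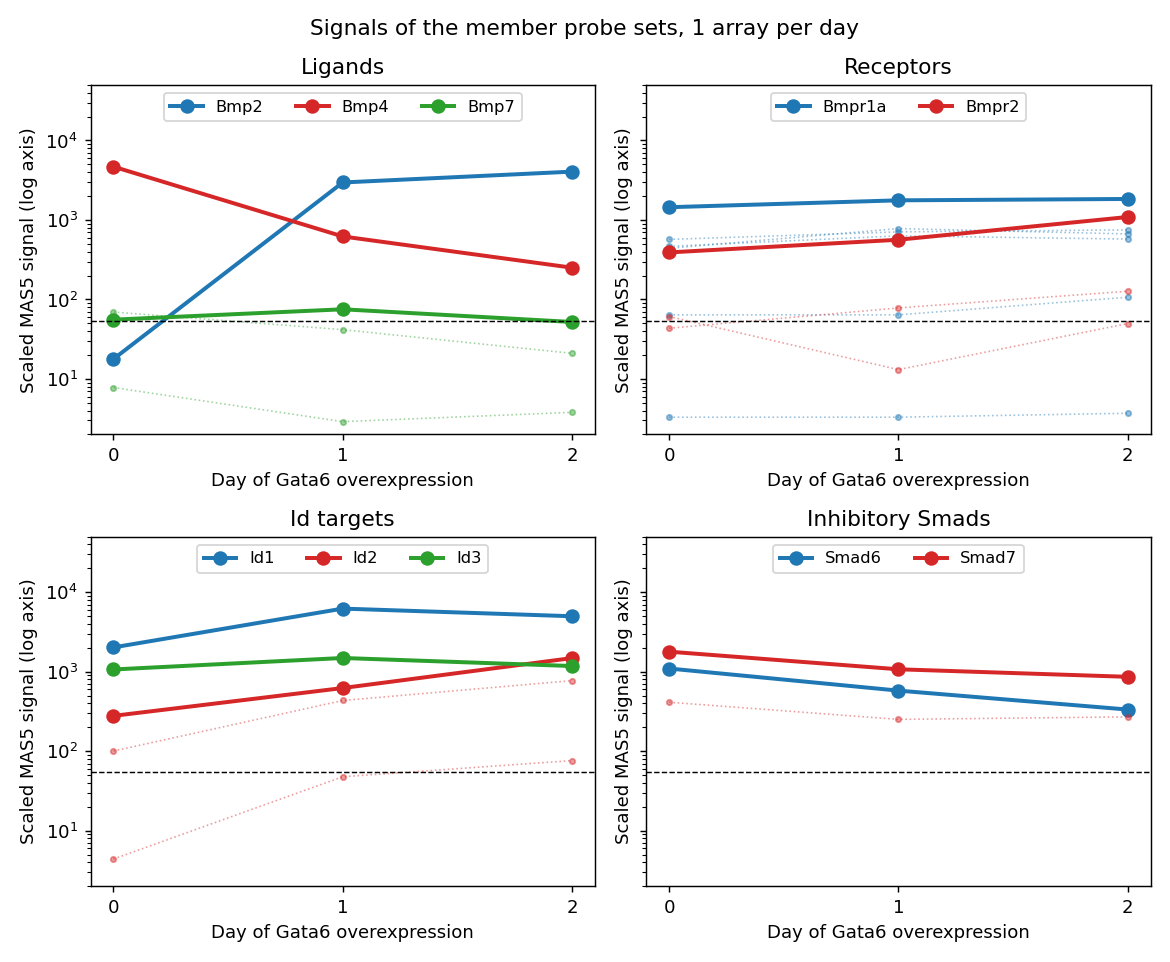
Scaled MAS5 signal (log axis) of the 22 member probe sets on days 0, 1 and 2, in panels by role, with 1 array per day and no error bars; thick lines are the probe set that represents each gene, thin dotted lines the others, and the dashed line is the floor of 54.0. Bmp2 goes from under the floor to 4056 while Bmp4 goes from 4682 to 251.1; the crossing of their lines has no meaning, since levels of different probe sets cannot be compared.

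The ligands Bmp4 and Bmp2 differed from day 0 in opposite directions. Bmp4 (probe set 1422912_at) read 4682 on day 0, 620.5 on day 1 and 251.1 on day 2. It was highest on day 0 and lower at each later day, 7.55-fold lower on day 1 and 18.6-fold lower on day 2. The log2 ratios were -2.92 and -4.22, each with a measurement SD of 0.26, and the step from day 1 to day 2 was -1.31 with a measurement SD of 0.39. In RNA from a whole culture, fewer cells that express Bmp4 and less Bmp4 RNA per cell cannot be told apart. Among all genes compared, Bmp4 had the 38th lowest ratio on day 1 and the 11th lowest on day 2.

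Bmp2 (1423635_at) read 17.8 on day 0, under the floor, then 2963 on day 1 and 4056 on day 2. It was thus near background on day 0 and bright on both later days, at least 54.9-fold higher on day 1 and at least 75.1-fold higher on day 2. Day 2 was 1.37-fold above day 1, a log2 ratio of 0.45 with a measurement SD of 0.26. Its ratio ranked 10th from the highest on day 1 and 12th on day 2. The fold is a bound because of the dim day 0 signal, and it moved with the floor, from a log2 ratio of 4.80 to 7.28 on day 2.

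Set side by side, the log2 ratios of Bmp2 and Bmp4 were at least 8.69 apart on day 1 and at least 10.5 apart on day 2. From day 1 to day 2 this gap grew by 1.76, of which 1.31 came from Bmp4 and 0.45 from Bmp2. Each of these genes has a single probe set, so neither change could be read a second time on the same arrays.

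Bmp7, another ligand of the family, was dim throughout. Its brightest probe set (1435479_at) read 55.7, 75.2 and 52.1, its next 69.4, 41.7 and 21.0, and its last stayed at 7.80 or less. The 95th percentile of the signals of olfactory and vomeronasal receptor probe sets, genes that ES cells should not express, was 70.2. Only the day 1 signal of the brightest probe set lay above that, and no Bmp7 probe set was called on any comparison.

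**Figure D2:**
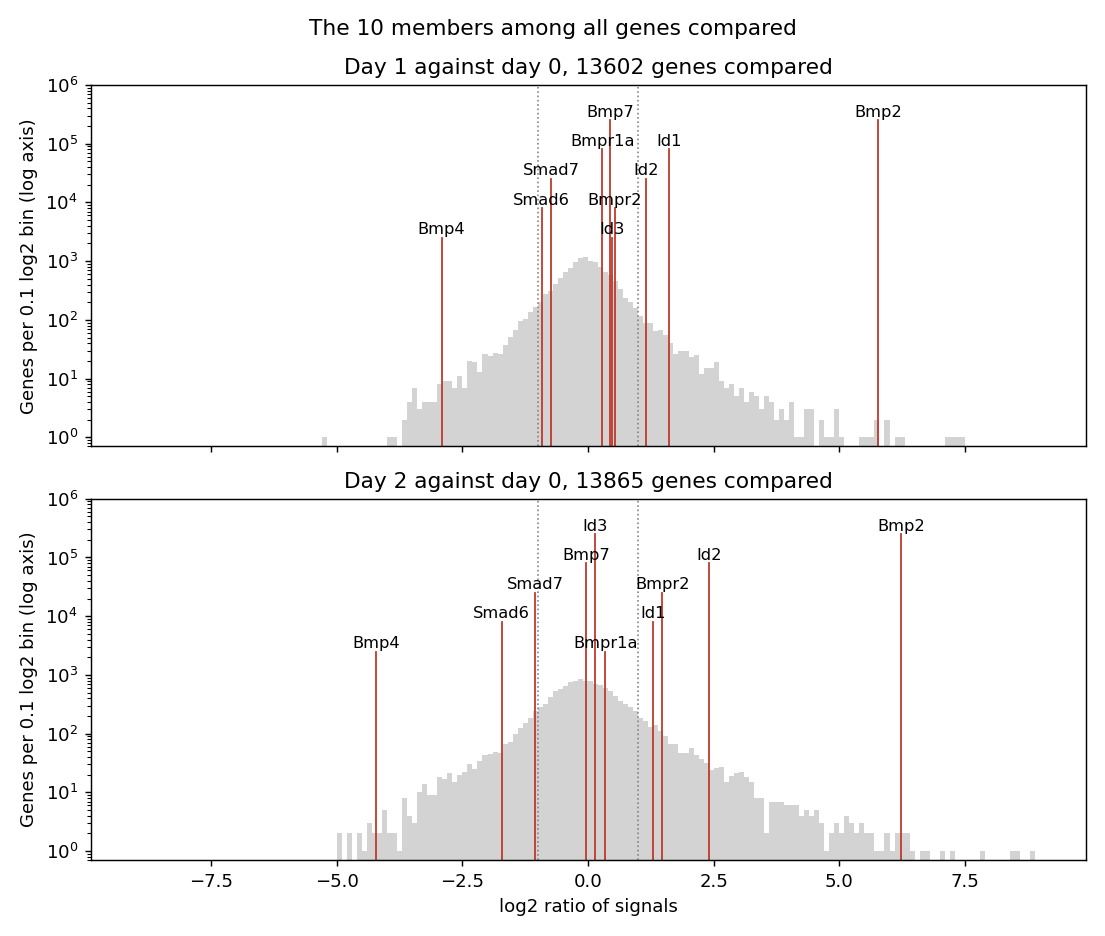
Histograms of the log2 ratio of all genes compared (bins of 0.1, log axis for the number of genes) on day 1 and day 2 against day 0, with the 10 members marked by red lines whose height only separates the names; dotted lines mark 2-fold. Bmp2 lies at 5.78 and 6.23 in the right tail and Bmp4 at -2.92 and -4.22 in the left tail.

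The genes whose pattern over the 3 arrays lay closest to those of the 2 ligands were picked by the Euclidean distance between floored log2 values centred on each gene's mean. For Bmp4 these were Fxyd6 (distance 0.085), Lrrc2 (0.12), the ERK phosphatase Dusp6 (0.22), 1190005I06Rik (0.23) and Ppm1j (0.23). Fxyd6 read 3337, 436.3 and 191, and Dusp6 read 1716, 184.1 and 84.7, so both had their highest signal on day 0 and their lowest on day 2. For Bmp2 they were the forkhead factor Foxq1 (0.11), Amot (0.16), the collagen chaperone Serpinh1 (0.24), Gata6 itself (0.32) and the adhesion protein Flrt3 (0.38). Foxq1 read 50.6, 2994 and 4481, also under the floor on day 0. Flrt3 was under it on day 0 too (25.6), and 1190005I06Rik (14.0) and Ppm1j (45.9) were under it on day 2. Because the day 0 value of Bmp2 is the floor itself, its distances, also that to Gata6, depend on the floor chosen. The nearest genes were not sought with another floor. With 3 arrays many genes share a pattern, and these names describe likeness over 3 values only.

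Promoter sequences were held for 6 of the 10 members (Bmp4, Bmpr1a, Bmpr2, Id2, Id3 and Smad6); Bmp2, Bmp7, Id1 and Smad7 have no entry. The 250 bases before the annotated start are shown for Bmp4, the member with the lowest ratio, and for Id2 and Id3, targets of the same pathway of which Id2 was called and Id3 was not. They are from RefSeq on GRCm38.p6, each 5′ to 3′ on the gene's strand: Bmp4 at chr14:46390670-46390919 on the minus strand, Id2 at chr12:25096093-25096342 on the minus strand and Id3 at chr4:136143572-136143821 on the plus strand. Capitals mark GGCGCC, or GGAGCC in either orientation (GGCTCC on the printed strand), GC-rich letters known from BMP-responsive elements.
Bmp4: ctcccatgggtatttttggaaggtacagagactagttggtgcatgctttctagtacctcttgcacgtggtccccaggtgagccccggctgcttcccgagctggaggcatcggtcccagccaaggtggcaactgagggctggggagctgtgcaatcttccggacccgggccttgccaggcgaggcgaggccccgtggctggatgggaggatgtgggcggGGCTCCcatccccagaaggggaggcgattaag
Id2: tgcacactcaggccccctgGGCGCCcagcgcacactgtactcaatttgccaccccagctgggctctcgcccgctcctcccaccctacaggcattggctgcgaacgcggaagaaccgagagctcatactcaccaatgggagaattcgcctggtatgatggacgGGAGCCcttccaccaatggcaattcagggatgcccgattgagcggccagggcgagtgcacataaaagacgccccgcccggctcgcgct
Id3: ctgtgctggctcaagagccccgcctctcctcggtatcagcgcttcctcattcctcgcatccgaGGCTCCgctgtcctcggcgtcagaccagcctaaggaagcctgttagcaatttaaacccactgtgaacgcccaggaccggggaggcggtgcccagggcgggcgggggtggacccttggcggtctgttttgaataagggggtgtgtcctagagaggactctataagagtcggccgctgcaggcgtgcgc
The Id2 window held GGCGCC with its first base 231 bases before the start and GGAGCC at 88 bases. The Id3 window held GGCTCC at 187 bases and the Bmp4 window GGCTCC at 32 bases. Among the members not printed, Bmpr1a and Bmpr2 each held 1 GGCGCC and Smad6 held 2 GGAGCC. Searched on both strands, GGCGCC was present in 9.59% and GGAGCC in 26.0% of 32817 promoters of the same length, and no match overlapped another in these 6. The 6 windows were 62.8% to 78.8% GC, against 53.2% over all promoters, so these shares are not matched for GC content. The part that GC content plays in the matches was not tested. The GATA motif, searched as AGATAA, then as AGATAG, then as TGATAA and last as TGATAG, and present in 26.6% of promoters, and the Smad palindrome GTCTAGAC, present in 0.168%, matched none of the 6 windows. A match describes letters in this window and says nothing of binding.

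Of the receptors, Bmpr2 was called higher on day 2 and Bmpr1a was not called. Bmpr2, the type II receptor, read 390.6, 563.7 and 1089 on its brightest probe set (1434310_at), lowest on day 0 and highest on day 2. It was 1.44-fold higher on day 1 and 2.79-fold higher on day 2, log2 ratios of 0.53 and 1.48 with a measurement SD of 0.39. The next Bmpr2 probe set read 43.4, 78.2 and 126.9, at least 2.35-fold higher on day 2, while the last was dim at 61.0, 13.1 and 49.7. With the mean over its probe sets the day 2 log2 ratio of Bmpr2 was 0.85, under 2-fold.

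Bmpr1a, the type I receptor, read 1447, 1766 and 1837 on its brightest probe set (1425492_at), which was 1.22-fold above day 0 on day 1 and 1.27-fold on day 2. Its 6 probe sets are the most of any member, and none was called on any comparison; the dimmest stayed under the floor. The 4 brightest had log2 ratios from 0.29 to 0.82 on day 1 and from 0.30 to 0.60 on day 2, so all 4 were slightly above day 0. Their order was day 0 lowest, with days 1 and 2 within the measurement SD of each other.

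**Figure D3:**
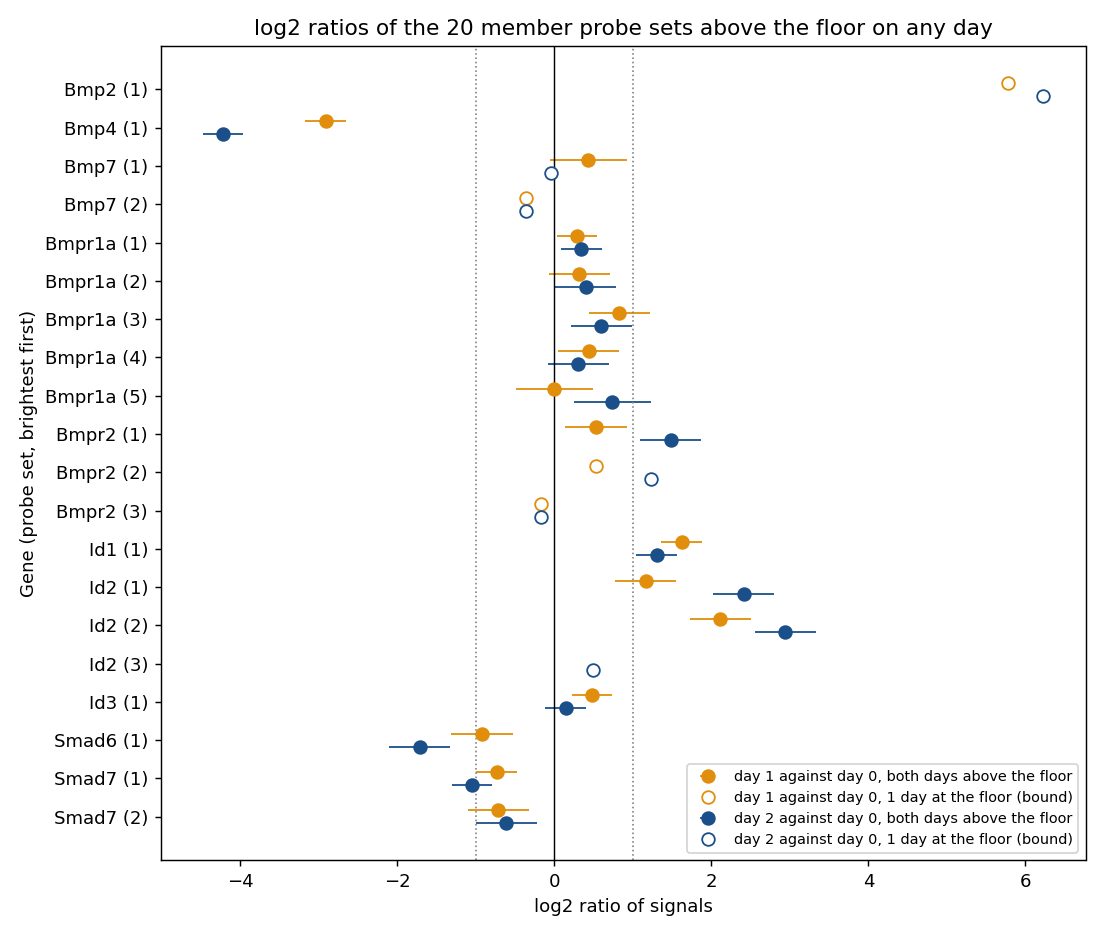
log2 ratios of day 1 (orange) and day 2 (blue) against day 0 for the 20 member probe sets above the floor on any day, numbered within a gene from the brightest; bars are the measurement SD (±1), open circles are bounds with 1 day at the floor, and dotted lines mark 2-fold. The 4 brightest Bmpr1a probe sets lie between 0.29 and 0.82, and 2 of the 3 Id2 probe sets lie above 1 on both days.

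The Id genes were called in different degrees. Id1 (1425895_a_at) read 2023, 6225 and 4988, highest on day 1. It was 3.08-fold higher on day 1 and 2.46-fold higher on day 2, log2 ratios of 1.62 and 1.30 with a measurement SD of 0.26. The day 2 array lay 1.25-fold under the day 1 array, a log2 ratio of -0.32 with a measurement SD of 0.16 that does not cover the spread between cultures.

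Id2 read 278.5, 623.3 and 1484 on its brightest probe set (1435176_a_at), higher at each later day. It was 2.24-fold higher on day 1, 5.33-fold on day 2 and 2.38-fold from day 1 to day 2, with log2 ratios of 1.16, 2.41 and 1.25 and a measurement SD of 0.39. A second probe set (1422537_a_at) read 100.4, 434.4 and 772.5, 4.33-fold higher on day 1 and 7.69-fold on day 2. From day 1 to day 2 it was 1.78-fold higher, under the 2-fold threshold. The third (1453596_at) was at 4.40, 47.7 and 76.2 and passed the floor on day 2 alone. It is the only Id2 probe set without a letter in its suffix, which does not make the brighter ones less specific to Id2. On this dim probe set alone Id2 would not be called on either day (log2 ratios 0.00 and 0.50, both limited by the floor).

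Id3 (1416630_at) read 1067, 1489 and 1179. It was 1.39-fold higher on day 1 and 1.10-fold on day 2, log2 ratios of 0.48 and 0.14 with a measurement SD of 0.26, and was not called on either day. Its highest value was on day 1, as for Id1, and its day 2 value was within the measurement SD of day 0. The fourth family gene, Id4, read 618.3, 386.9 and 1190, lowest on day 1. It was 3.07-fold higher on day 2 than on day 1, and its 3 probe sets had log2 ratios of 1.23 to 1.62 for that step. Id4 is named because it belongs to the family and was chosen after its values were seen.

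Both inhibitory Smads were called lower than day 0 on day 2 and neither was called on day 1. Smad6 (1422771_at), which competes with receptor Smads in the BMP branch, read 1097, 578.5 and 334.3, lower at each later day. It was 1.90-fold lower on day 1 and 3.28-fold lower on day 2, log2 ratios of -0.92 and -1.71 with a measurement SD of 0.39. Day 1 thus fell just short of the 2-fold threshold.

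Smad7 (1423389_at), which blocks both the BMP and the TGF-β receptors, read 1788, 1073 and 863.1. It was 1.67-fold lower on day 1 and 2.07-fold lower on day 2, log2 ratios of -0.74 and -1.05 with a measurement SD of 0.26, so the day 2 call lay within that SD of the threshold. A second, less specific probe set (1443771_x_at) read 413.1, 251.4 and 270.4, 1.64-fold lower on day 1 and 1.53-fold on day 2. With the mean over both, the day 2 log2 ratio was -0.83, under 2-fold. Smad6 and Smad7 therefore differed from day 0 in the opposite direction to Id1 and Id2.

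The rest of the pathway was read through 8 lists holding 76 further genes; the array carried 71 of them, and 60 passed the floor on at least 1 day. On day 1, 7 of 54 compared (13.0%) were called higher and 2 (3.70%) lower than on day 0, beside 6.00% and 6.58% of all genes. On day 2, 12 of 58 (20.7%) were called higher and 3 (5.17%) lower, beside 11.0% and 10.1% of all genes. The counts of each list below stand beside these same shares. Because the lists were chosen with earlier results of these data known, no enrichment is read from these shares.

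**Figure D4:**
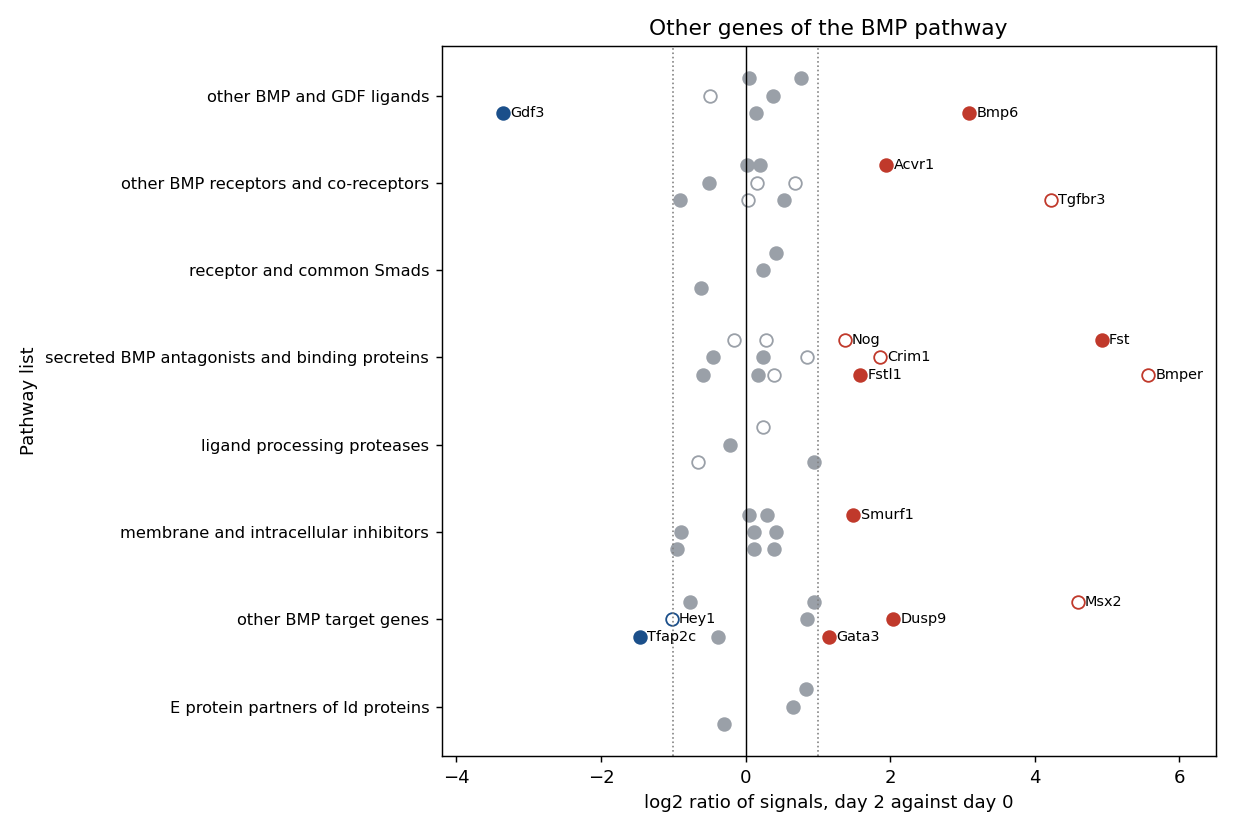
log2 ratio of day 2 against day 0 for the 58 compared genes of the 8 pathway lists, 1 point per gene; red is at least 2-fold higher, blue at least 2-fold lower, grey within 2-fold, open points are bounds with 1 day at the floor, and dotted lines mark 2-fold. Bmper at 5.57 and Fst at 4.93 lie farthest to the right and Gdf3 at -3.36 farthest to the left.

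On day 2, 1 of the 7 other ligands compared was called higher than day 0 and 1 lower, and the median log2 ratio was 0.14. Bmp6 read 55.1, 586.7 and 470.9, 10.6-fold and 8.54-fold higher on days 1 and 2. Its day 0 signal lay barely above the floor and under the 70.2 reached by olfactory and vomeronasal receptor probe sets, and raising that floor to the 60th percentile moved the log2 ratios from 3.41 to 2.01 on day 1 and from 3.09 to 1.69 on day 2. Gdf3, a ligand of the family made by pluripotent cells, read 3506, 1669 and 342.1, 2.10-fold and 10.2-fold lower. Its second probe set read 806.3, 337.4 and 103.5. Bmp10 passed the floor on day 1 alone, at 121.5, and lost its call with a higher floor (the 60th percentile).

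Of the 10 other receptors and co-receptors, all compared on day 2, 2 were above day 0 by the threshold and 0 below, and the median was 0.18. The co-receptor Tgfbr3 (betaglycan) read 12.1, 259.3 and 1007, at least 18.6-fold higher on day 2 (log2 ratio 4.22). With the floor at the 60th percentile that log2 ratio was 2.79, and the day 1 call was lost. Its second probe set read 66.7, 125.5 and 222.7, 3.34-fold higher on day 2. The type I receptor Acvr1 read 252, 459.9 and 974.2, 3.86-fold higher on day 2. Another Acvr1 probe set had a log2 ratio of 2.46, and the dimmest one had -0.64. Acvr2b, a type II receptor, read 871.7, 427.1 and 465.9, called lower on day 1 only (log2 ratio -1.03, but -0.75 with the mean over its probe sets).

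The Smads that carry the signal were within 2-fold on every comparison: Smad1 had log2 ratios of -0.33 and 0.43 on days 1 and 2, Smad4 of 0.27 and 0.24 and Smad5 of -0.07 and -0.62. Smad9 was at the floor on each array. None of the 4 ligand-processing proteases above the floor was called. Furin had log2 ratios of 0.88 and 0.95 on days 1 and 2 and Pcsk6 of 0.37 and -0.21. Pcsk5 read 85.1, 34.6 and 41.4 and Bmp1 read 21.7, 62.5 and 64.0, so their ratios are bounds; with the floor at the 25th percentile, Bmp1 was called higher and Pcsk5 lower on both days.

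Of the secreted antagonists and BMP-binding proteins on day 2, 5 of 13 compared were called higher, where 11.0% of all genes were, and 0 lower, with a median of 0.39. On day 1, 2 of 10 were called higher, where 6.00% of all genes were. Bmper, a secreted BMP-binding protein, read 36.6, 769.1 and 2563, at least 14.2-fold higher on day 1 and at least 47.4-fold on day 2. Follistatin (Fst), which binds activins and some BMPs, read 117.0, 211.1 and 3560, with log2 ratios of 0.85 on day 1 and 4.93 on day 2. Its second probe set read 54.4, 175.4 and 3445.

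Fstl1 read 237.2, 600.7 and 713.0, a day 2 log2 ratio of 1.59, while its second probe set had log2 ratios of 0.98 on day 1 and 0.83 on day 2, both within 2-fold. Crim1, a membrane protein that binds BMPs, read 26.6, 75.7 and 195.9, and its second probe set, at 29.7, 61.4 and 91.6, was not called against day 0. Noggin (Nog), a classic BMP antagonist, was at the floor on days 0 and 1 and read 139.8 on day 2, on its single probe set; it was the fifth higher gene and is named after its value was seen. Crim1 and Nog were not called with the floor at the 60th percentile. Chordin (Chrd) read 149.5, 153.8 and 109.4, and Cer1, Dand5, Sost and Sostdc1 were at the floor on each array.

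Of the 9 membrane and intracellular inhibitors, 1 was higher on day 2 and 0 lower; the median was 0.12. Smurf1, a ubiquitin ligase for receptor Smads, read 273.2, 540.1 and 768.8, 2.81-fold higher on day 2, with a log2 ratio of 1.78 on its second probe set. Tob1 read 1400.5, 2911 and 1515, higher on day 1 alone, and its second probe set stayed between 85.6 and 94.4. The pseudoreceptor Bambi, itself a known BMP target, read 483.6, 357.7 and 251.4, a day 2 log2 ratio of -0.94.

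Other known BMP target genes differed in both directions on day 2, 3 of 9 compared being higher and 2 lower, around a median of 0.85. Msx2, a homeobox gene, read 28.2, 891.2 and 1302, at least 16.5-fold higher on day 1 and at least 24.1-fold on day 2. Its second probe set reached only 71.7. Dusp9, an ERK phosphatase that BMP is known to induce in ES cells, read 1604, 2424 and 6620, 4.13-fold higher on day 2, and its 3 probe sets had log2 ratios of 2.04 to 2.17.

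Gata3 reached 162.3 on day 2 and was not called with the floor at the 60th percentile. Tfap2c read 884.8, 574.4 and 320.2, 2.76-fold lower, with log2 ratios of -1.45 to -1.48 over its 3 probe sets. Hey1 read 109.6, 104.4 and 49.1 and was not called with that higher floor or with a pseudocount. The E proteins that Id proteins bind were within 2-fold on every comparison, with day 2 log2 ratios of -0.30 for Tcf3, 0.66 for Tcf4 and 0.83 for Tcf12.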

How the data were processed

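Total RNA from 3 cultures was labelled with an Affymetrix one-cycle kit, per the labels' protocols. The deposited table holds a linear intensity for each probe set and array, made with MAS5 per the submitters' processing notes; neither its version nor its scaling target is stated there. Of 45101 probe sets, 64 were controls, 34945 were annotated to 1 gene, 932 to several and 9160 to none. Only the first kind was used. For 34741 of these the gene identifier was found in RefSeq (GRCm38.p6), and the symbol given there was used. Each array was scaled to one 2% trimmed mean, anything below 54.0 (the 40th percentile over the 3 scaled arrays) was raised to it, and log2 was taken. A gene was read on the probe set whose mean log2 value was highest, and the call was 2-fold with the brighter day above the floor.

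The measurement SD compares log2 ratios of probe sets that share a gene and lie above the floor: it is the SD of their pairwise differences over the square root of 2, from 47012 pairs. A call between days has no p-value. The number of arrays limits the precision. Genes named outside the members were, in each list, at most the 4 widest among those called on day 1 or day 2 against day 0, and the 5 nearest patterns of Bmp4 and Bmp2; others are named after their values were seen. The members and lists were chosen with earlier results of these data known. Ratios were tested on simulated data with wide changes planted in bright genes and noise below the measurement SD. That simulation does not cover genes at the floor or calls near the 2-fold threshold. Python 3.11.15, pandas 2.3.3 and statsmodels 0.14.6 were used, and 12 alternatives were tried.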

Additional observations from a re-analysis of the deposited data

How the results depend on the processing

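No paired analysis was possible because each day has 1 array. For the same reason no replicate could be left out. Over 10 alternatives in scaling, floor and probe sets, all 60 Bmp2 and Bmp4 log2 ratios kept their sign, and 54 stayed within the measurement SD. The other 6 were Bmp2 against day 0, whose dim day 0 signal makes the ratio depend on the floor by construction: on days 1 and 2 it was 6.83 and 7.28 with a lower floor (25th percentile), 4.34 and 4.80 with a higher one (60th), and 6.46 and 6.91 with a pseudocount of 16. Scaling and floor changed no count of members called. Of 72 such counts, 8 moved by over 1.5 times. From day 1 to day 2 the 1 higher member was Id2. That count became 0 with means over probe sets, and where probe sets with a letter suffix were passed over. A 1.5-fold threshold gave 3 lower members on day 1 against day 0 (Bmp4, Smad6 and Smad7), and from day 1 to day 2 it gave 2 higher (Bmpr2 and Id2) and 2 lower (Bmp4 and Smad6). A 3-fold threshold left 2 higher members on day 2 against day 0 (Bmp2 and Id2) and, from day 1 to day 2, 0 in either direction. Of the other members' 240 log2 ratios, 7 moved by over the measurement SD, all of Id2 or Bmpr2 with another choice of probe sets. Of 480 pathway list counts, 30 moved by over 1.5 times. Signals near the floor limit what can be said of Bmp7, Bmp6, Bmp1, Pcsk5, Nog, Bmp10, Crim1, Gata3 and Hey1, and of Tgfbr3 on day 1.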
